A study of Mus musculus with 6 samples.

Results

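The genes described here are the enzymes, transporters and kinases of glycolysis, pyruvate handling and the tricarboxylic acid (TCA) cycle in mouse advanced embryonic stem cells (ASCs) with and without *Bdh2*. They were chosen by name, with no threshold on a measured value, as 48 gene symbols among the 54715 genes of the deposited count table. They stand on 49 rows, because a second gene model also carries the symbol *Aldoa*, and all 49 rows had enough counts to be tested. Glycolysis holds 19 of the genes on 20 rows, pyruvate handling 12 and the TCA cycle 17.

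RNA was sequenced from WT ASCs and *Bdh2*-knockout ASCs, with 3 replicates of each. ASCs are mouse embryonic stem cells held in an advanced pluripotent state, and both genotypes were grown in the same medium, which contains leukemia inhibitory factor, the GSK3 inhibitor CHIR99021, BMP4 and activin A. The cell line is labelled as derived from a female 129/sv mouse mated with a GOF/GFP male, so WT and knockout cells share the GFP reporter background. In the knockout cells both alleles were disrupted by CRISPR/Cas9 at the start of the coding sequence, and each knockout line was grown from 1 picked colony. A line with a frameshift deletion on both alleles was taken forward for later experiments. Whether all knockout libraries came from this line, and whether the replicates of either genotype were separate cultures, is not stated, so the p-values below measure only the spread between these samples, and an effect of the clone cannot be told apart from an effect of the genotype.

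Glycolysis splits glucose into pyruvate in the cytosol and yields ATP and NADH without oxygen. Pyruvate is then either reduced to lactate, which restores NAD+, or carried into mitochondria, where the pyruvate dehydrogenase complex turns it into acetyl-CoA under the control of inhibitory kinases. The TCA cycle oxidizes acetyl-CoA and feeds electrons to the respiratory chain. Pluripotent stem cells are known for a high rate of glycolysis, and the balance between lactate and mitochondrial oxidation shifts as they pass between pluripotent states. *Bdh2*, a cytosolic short-chain dehydrogenase, is not an enzyme of these pathways.

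The libraries held 18927748 to 28333541 counts on genes, and 3 counts corresponded to 0.106 to 0.158 CPM (counts scaled to the size of the library). Where values of single libraries are listed, they stand in the order of replicates 1, 2 and 3. *Bdh2* transcripts stood at 10.5, 9.56 and 8.27 CPM in WT and 5.95, 4.99 and 5.38 CPM in knockout replicates, so transcripts of the targeted gene remained at 57.7% of the WT mean (log2 fold change -0.79, SE 0.12; edgeR adjusted p = 2.46e-04). The study reports hardly any detectable BDH2 protein in its knockout ASC lines, so this RNA level does not measure remaining protein. The summed level of 14 pluripotent cell markers was 8587 to 8786 CPM in WT ASCs and 9189 to 9349 CPM in knockout ASCs, with 8 of the 14 called higher and 2 lower. The 15 primitive endoderm markers summed to 652 to 713 CPM and 1176 to 1294 CPM, and 14 of the 15 were called higher and 1 lower. All 24 markers of adult hepatocytes were detected, and they summed to 498, 305 and 41.9 CPM in WT and 34.2, 142 and 22.5 CPM in knockout replicates. Of the 22 tested hepatocyte markers 16 were called lower and 0 higher. The 8 fibroblast markers summed to 21.9 to 32.5 CPM and the 7 erythroid markers in the table to 0.363 to 1.49 CPM. In bulk RNA fewer cells of a type and less RNA per cell cannot be told apart, and the part of these markers in the results below was not tested beyond the fit with hepatocyte markers as a covariate, given where it changes a call.

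In *Bdh2*-knockout ASCs 5 of the 49 rows rose and 11 fell at a Benjamini-Hochberg adjusted p under 0.05 in edgeR's quasi-likelihood test, and 33 were not called. This is 32.7% of the rows, against 41.7% of the 16758 genes tested (21.0% higher and 20.8% lower). The 3 WT and 3 knockout values did not overlap in 21 rows (42.9%), against 52.4% of all genes. The median log2 fold change of the rows was -0.04, beside -0.01 over all genes tested. The share of called genes was thus no higher among these enzymes than in the transcriptome at large. Glycolysis had 8 called rows of 20 (40.0%), pyruvate handling 5 of 12 (41.7%) and the TCA cycle 3 of 17 (17.6%).

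Summed per length, the genes of glycolysis held 13618 ± 471 TPM in WT and 13389 ± 793 TPM in knockout ASCs, those of pyruvate handling 3119.8 ± 57.7 TPM in WT and 3019.5 ± 169 TPM in knockout ASCs and those of the TCA cycle 2219 ± 81.6 TPM in WT and 2216 ± 48.8 TPM in knockout ASCs (mean ± SD, n = 3; TPM is each gene's length-scaled share of all transcripts). Without *Gapdh*, glycolysis held 13431 ± 454 TPM in WT and 13077 ± 814 TPM in knockout ASCs. In each pathway the genotype means differed by less than 1 SD of the knockout replicates. For pyruvate handling they differed by more than the WT SD of 57.7 TPM. The pathways' total transcript pools overlapped between genotypes, while single members within them moved.

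**Figure D1:**
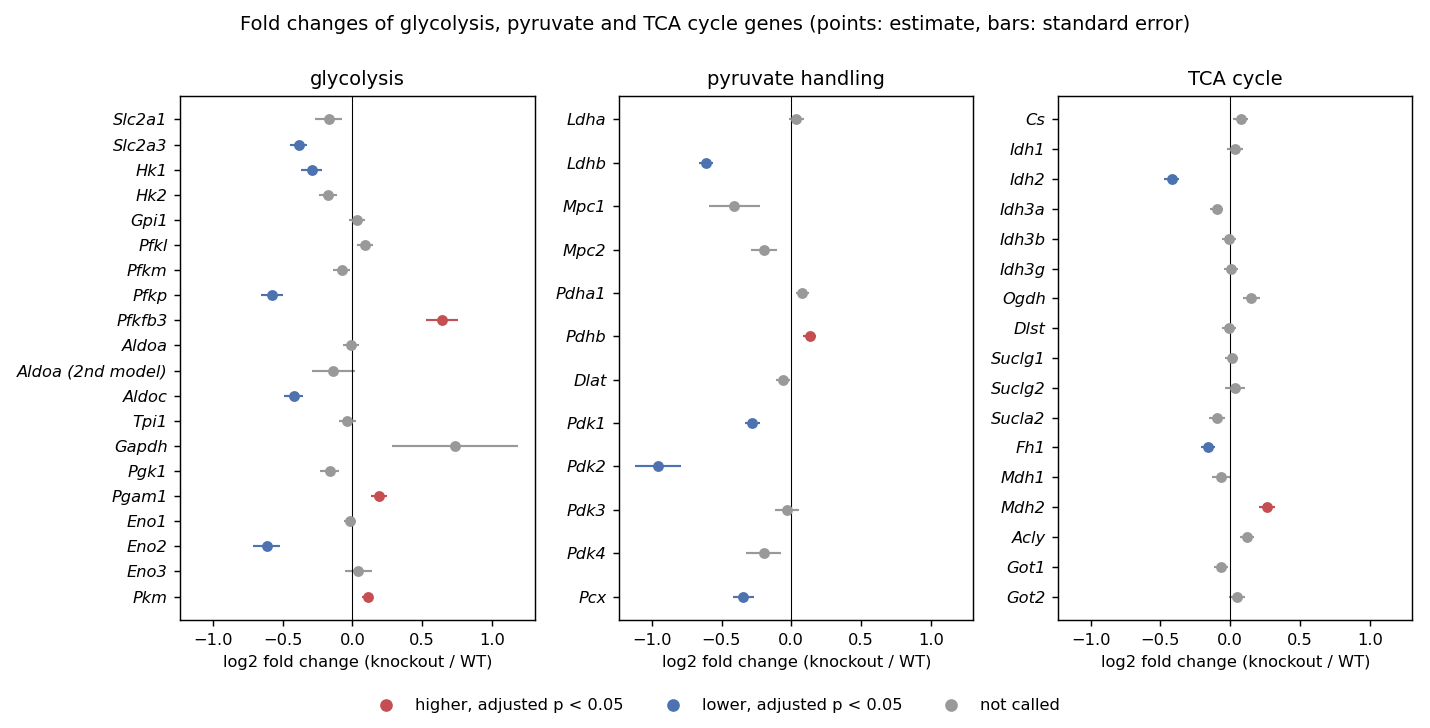
Log2 fold change of each row in *Bdh2*-knockout over WT ASCs (x axis, points) with its standard error (bars), one panel per pathway, coloured by the edgeR call at an adjusted p under 0.05. *Pdk2* is the lowest called value at -0.95 and *Pfkfb3* the highest at 0.64, *Gapdh* has the widest error at 0.45, and 14 of the 17 TCA cycle genes lie between -0.10 and 0.15.

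The first steps of glycolysis bring glucose into the cell and trap it. *Slc2a3* encodes the high-affinity glucose transporter GLUT3, and its level was 1892, 2112 and 1920.1 CPM in WT and 1591, 1374 and 1576 CPM in knockout replicates. Every knockout value was below every WT value (log2 fold change -0.38, SE 0.06; edgeR adjusted p = 2.77e-04). *Slc2a1*, for the widely expressed transporter GLUT1, ran at 588, 765 and 672 CPM in WT and 652, 512 and 635 CPM in knockout replicates, where the genotypes overlapped and no change was called (log2 fold change -0.17, SE 0.09). It was called lower in 3 of 16 alternatives, namely without WT ASC replicate 1 (-0.26, edgeR adjusted p = 0.0431), with no filter on low counts (-0.16, 0.0231) and with hepatocyte markers as a covariate (-0.29, 0.0333). Over the fits without 1 library *Slc2a1* ran from -0.26 to -0.06, with an edgeR adjusted p of up to 0.596. Among the hexokinases, which phosphorylate glucose, *Hk1* was 60.0, 69.7 and 73.8 CPM in WT and 58.4, 50.3 and 57.8 CPM in knockout replicates, again without overlap (log2 fold change -0.29, SE 0.08; edgeR adjusted p = 0.00858). *Hk2*, the more abundant hexokinase, had 490.2, 564 and 554 CPM in WT and 505, 432 and 489 CPM in knockout replicates. Its log2 fold change of -0.17 (SE 0.07) just missed the threshold at an edgeR adjusted p of 0.0504, and 9 of 16 alternatives called it lower, among them the fits without WT ASC replicate 1 (-0.23, edgeR adjusted p = 0.0144), without knockout ASC replicate 1 (-0.21, 0.0478) and with hepatocyte markers as a covariate (-0.27, 0.00721). Leaving out 1 library at a time, *Hk2* ran from -0.23 to -0.10, with an edgeR adjusted p of up to 0.245. The call of *Slc2a3* and that of *Hk1* were kept in each fit but the test against a fold change of 1.2.

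The step that commits sugar to glycolysis is made by phosphofructokinase, a tetramer built from liver, muscle and platelet subunits. The platelet subunit *Pfkp* was at 807, 935 and 814 CPM in WT ASC replicates and 593, 496 and 625 CPM in knockout ASC replicates, a fall to 67.0% of the WT mean (log2 fold change -0.58, SE 0.08; edgeR adjusted p = 9.49e-05). The liver subunit *Pfkl* had 449.8, 480.4 and 518 CPM in WT and 518, 489.8 and 536 CPM in knockout replicates, which overlapped (log2 fold change 0.09, SE 0.06), and it was called higher without WT ASC replicate 3 (0.15, edgeR adjusted p = 0.0256). Over the fits without 1 library *Pfkl* ran from 0.04 to 0.15, with an edgeR adjusted p of up to 0.578. The muscle subunit *Pfkm* had a log2 fold change of -0.08 (SE 0.06). *Pfkp* thus moved while its partner subunits did not pass the test. *Pfkfb3* encodes the enzyme that makes fructose 2,6-bisphosphate, the allosteric activator of phosphofructokinase, and it went the other way. Its level was 42.4, 55.9 and 45.4 CPM in WT replicates and 83.7, 59.9 and 80.5 CPM in knockout replicates, 1.56-fold higher on average (log2 fold change 0.64, SE 0.12; edgeR adjusted p = 7.76e-04). The lowest knockout value of *Pfkfb3*, in replicate 2, stood close to its highest WT value, also in replicate 2. Both *Pfkp* and *Pfkfb3* kept their call under all 16 alternatives.

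Aldolase cleaves the sugar bisphosphate into trioses. *Aldoc*, the isozyme known from brain, fell from 63.8, 70.3 and 72.2 CPM in WT replicates to 54.3, 46.6 and 53.5 CPM in knockout replicates (log2 fold change -0.42, SE 0.07; edgeR adjusted p = 3.17e-04). *Aldoa*, the main isozyme here, lay between 1841 and 2106 CPM in all 6 libraries (log2 fold change -0.01, SE 0.06). Its second gene model held 69 to 88 counts per library and was not called. The triose and hexose isomerases *Tpi1* and *Gpi1* had log2 fold changes of -0.04 (SE 0.06) and 0.03 (SE 0.06). These steps were carried by the same dominant genes at overlapping levels in both genotypes.

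The later steps of glycolysis recover ATP. *Pgk1*, the first ATP-producing kinase, had 1585, 1711 and 1583 CPM in WT and 1520.3, 1275 and 1564 CPM in knockout replicates, where the values did not overlap but the test was not passed (log2 fold change -0.16, SE 0.07; edgeR adjusted p = 0.0663). It was called lower in 5 of 16 alternatives, namely without knockout ASC replicate 3 (-0.21, edgeR adjusted p = 0.0426), with hepatocyte markers as a covariate (-0.23, 0.0371), with library totals alone (-0.22, 0.0164), with no filter (-0.15, 0.0300) and at a mean count of 50 or more (-0.18, 0.0497). Over the fits without 1 library *Pgk1* ran from -0.21 to -0.07, with an edgeR adjusted p of up to 0.339. *Pgam1*, the phosphoglycerate mutase, was slightly higher at 804, 757 and 822 CPM in knockout replicates against 650.3, 689 and 750.4 CPM in WT replicates (log2 fold change 0.19, SE 0.06; edgeR adjusted p = 0.0162). *Pkm*, the pyruvate kinase that ends the pathway and one of the most abundant members, was at 4447, 4591 and 4581 CPM in WT and 5032, 4678 and 4982 CPM in knockout replicates (log2 fold change 0.11, SE 0.04; edgeR adjusted p = 0.0476). *Eno2*, the neuronal enolase, went from 14.2, 14.7 and 12.1 CPM in WT to 8.53, 9.53 and 8.64 CPM in knockout replicates (log2 fold change -0.61, SE 0.10; edgeR adjusted p = 3.20e-04). *Eno1*, the main enolase, lay between 3484 and 3768 CPM (log2 fold change -0.02, SE 0.04), and *Eno3*, the muscle form, had 0.04 (SE 0.10). *Eno2* is thus a minor enolase that fell, while the genotypes overlapped for the dominant one.

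*Pgam1* and *Pkm* were small changes. Without WT ASC replicate 1 *Pgam1* stood at 0.14 (edgeR adjusted p = 0.0679) and without knockout ASC replicate 3 at 0.18 (0.0609). *Pkm* kept its call in 4 of 16 alternatives and lost it without WT ASC replicate 1 (0.09, edgeR adjusted p = 0.128), WT replicate 2 (0.12, 0.0671), knockout replicate 1 (0.10, 0.110) or knockout replicate 3 (0.11, 0.108). With hepatocyte markers as a covariate the adjusted p rose to 0.283 for *Pgam1* and 0.440 for *Pkm*. Both share sequence with other genes, in 41.5% and 34.4% of the 50-base stretches of the longest transcript, and 15.3% of the exon bases of *Pkm* are also exon of *Gm49759* on the same strand. *Eno1* (72.2%) and *Pgk1* (68.0%) share more. How reads with several matches were counted is not stated, so the levels of these genes are uncertain.

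**Figure D2:**
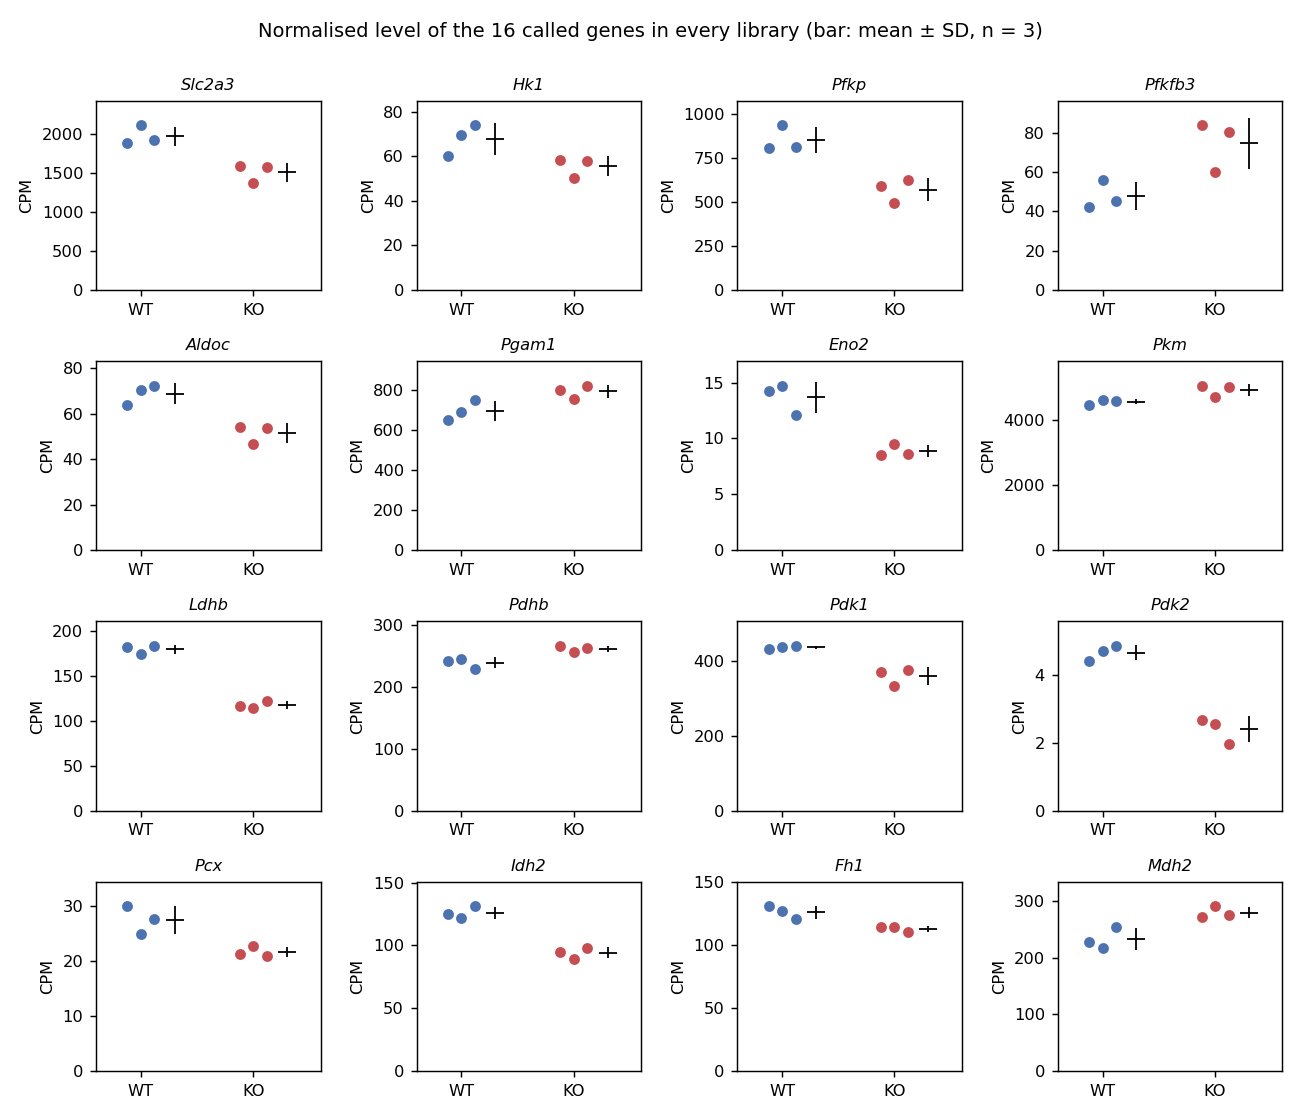
Normalised level (CPM, y axes from 0) of the 16 called genes in every library, with WT replicates in blue, *Bdh2*-knockout replicates in red and mean ± SD (n = 3) in black beside them. In all 16 panels the genotypes do not overlap, and the gap is widest in proportion for *Pdk2* (4.43 to 4.87 against 1.96 to 2.69 CPM).

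*Gapdh*, the triose phosphate dehydrogenase that makes the NADH of glycolysis, is the reference gene of the study's RT-qPCR and varied more between WT replicates than any other member. Its row held 5146, 9540 and 1401 counts in WT and 13222, 12438 and 9181 counts in knockout replicates. Normalised, these counts gave 265, 473 and 55.4 CPM in WT and 479.9, 456 and 383 CPM in knockout replicates. The WT libraries spread over an 8.52-fold range and WT replicate 2 reached the knockout level, so the genotypes overlapped. The coefficient of variation over WT replicates was 78.9%, against 0.334% to 20.1% (median 6.03%) for the other members, and over knockout replicates it was 11.5%. Of 2266 genes at a mean of 100 CPM or more, 3 had a WT coefficient of variation at least this large, *Gapdh* included.

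The log2 fold change of *Gapdh* was 0.74, SE 0.45 with an edgeR adjusted p of 0.206, and it was not called. This value rested on single WT libraries, since it was 0.26 without WT ASC replicate 3 and 1.47 without WT ASC replicate 2, where it was called (edgeR adjusted p = 0.0220). It was also called with no filter on low counts (0.76, edgeR adjusted p = 1.4e-38), with the replicate block (1.14, edgeR adjusted p = 0.0106) and with hepatocyte markers as a covariate (2.10, 0.00146). The p without a filter is far below that of every other fit despite the spread of the WT replicates. It is therefore not read as a measure of that spread. *Gapdh* has 30 near-identical copies elsewhere in the table, and 94.6% of the 50-base stretches of one of its coding transcripts also occur in other genes. The copies together held 102, 80.4 and 106 CPM in WT and 99.3, 91.5 and 95.5 CPM in knockout replicates. Their sum therefore stayed within a narrow range where the *Gapdh* row itself varied, and adding them to it left WT replicate 3 lowest at 161 CPM. In WT ASC replicate 3, the members acting just after and just before it, *Pgk1* and *Tpi1*, were at 1583 and 663 CPM, each within the range of the other 5 libraries.

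**Figure D3:**
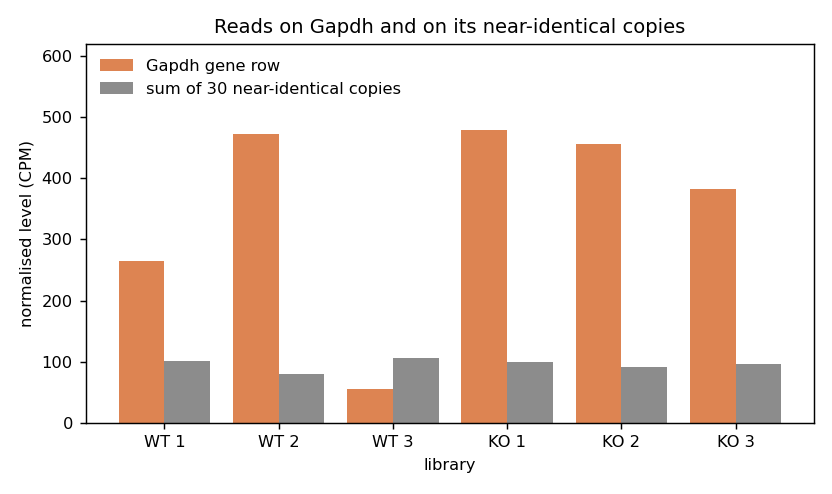
Normalised level (CPM) of the *Gapdh* row (orange) and of the sum of its 30 near-identical copies (grey) in each of the 6 libraries. *Gapdh* is at 265, 473 and 55.4 CPM in the WT libraries and between 383 and 480 CPM in the knockout libraries, whereas the copies stay between 80.4 and 106 CPM throughout.

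Pyruvate handling held the called member with the largest fold change, *Pdk2*, and the one with the smallest adjusted p, *Ldhb*. Lactate dehydrogenase, which converts pyruvate and lactate, is a tetramer of A and B subunits, the A subunit being known for lactate formation and the B subunit for lactate use. *Ldhb* was 182, 174 and 183 CPM in WT and 117, 114 and 122 CPM in knockout replicates, a tight pair of groups with the knockout at 65.4% of WT (log2 fold change -0.61, SE 0.05; edgeR adjusted p = 1.44e-06). *Ldha*, the far more abundant subunit, was 2299, 2443 and 2374 CPM in WT and 2552, 2235 and 2510.0 CPM in knockout replicates, which overlapped (log2 fold change 0.04, SE 0.05). *Ldhb* was called under all 16 alternatives. Of its 50-base stretches 27.0% also occur in other genes, and 16.6% of those of *Ldha*.

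Promoters are shown for the lactate dehydrogenase pair, of which *Ldhb* changed and *Ldha* did not pass the test, and for *Pfkfb3*, the glycolytic gene with the largest called increase. Each run is the 250 bases before an annotated RefSeq start on GRCm38.p6, written 5′ to 3′ along the gene's strand in lower case, with ACGTG (the core bound by hypoxia-inducible factors) or its reverse complement CACGT in capitals. CACGTG, the E-box bound by Myc and related factors, contains ACGTG on both strands and so appears as 6 capitals. The *Ldha* run holds 3 such matches, which begin 145, 48 and 34 bases before the start, and the *Ldhb* run holds 0. A second annotated start of *Ldha*, whose 250 bases (chr7:46846832-46847081, plus strand) are not printed, holds 0 as well, so the presence of a match depends on the start taken. Each *Pfkfb3* run holds 1, beginning 53 and 60 bases before its start.
Ldha (chr7:46845554-46845803, plus strand): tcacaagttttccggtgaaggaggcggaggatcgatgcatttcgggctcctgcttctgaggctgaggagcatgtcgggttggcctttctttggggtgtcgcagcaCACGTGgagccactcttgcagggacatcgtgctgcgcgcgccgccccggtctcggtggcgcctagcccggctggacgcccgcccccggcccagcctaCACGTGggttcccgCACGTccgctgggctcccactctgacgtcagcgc
Ldhb (chr6:142507958-142508207, minus strand): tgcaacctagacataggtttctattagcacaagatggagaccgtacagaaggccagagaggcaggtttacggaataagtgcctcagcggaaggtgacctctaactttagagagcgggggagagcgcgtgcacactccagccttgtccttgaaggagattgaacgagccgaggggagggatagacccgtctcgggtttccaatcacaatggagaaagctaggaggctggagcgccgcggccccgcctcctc
Pfkfb3, first start (chr2:11502091-11502340, minus strand): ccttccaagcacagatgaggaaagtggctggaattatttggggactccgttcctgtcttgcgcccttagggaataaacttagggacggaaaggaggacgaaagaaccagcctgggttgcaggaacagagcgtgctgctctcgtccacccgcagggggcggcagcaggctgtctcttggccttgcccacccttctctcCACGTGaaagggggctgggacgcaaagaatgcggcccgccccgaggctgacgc
Pfkfb3, second start (chr2:11553930-11554179, minus strand): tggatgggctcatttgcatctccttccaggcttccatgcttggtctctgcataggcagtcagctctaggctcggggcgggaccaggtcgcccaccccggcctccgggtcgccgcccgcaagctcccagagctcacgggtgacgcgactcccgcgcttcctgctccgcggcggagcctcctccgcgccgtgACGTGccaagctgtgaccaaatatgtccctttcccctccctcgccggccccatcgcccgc

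RefSeq promoters were given for 46 of the 48 genes, 68 promoters in all, and *Idh3a* and *Slc2a3* had no entry. In windows from 250 bases before to 50 after the start, searched on both strands, ACGTG occurred in 28 of the 68 (41.2%), against 19.6% of all 32851 promoters. By gene it was present in 20 of 46 (43.5%), against 21.8% of all genes. CACGTG occurred in 8 of the 68 promoters (11.8%), against 7.15% of all promoters. Among genes with a promoter entry, 8 of the 15 called and 12 of the 31 not called held ACGTG. These are matches of letters and not measured binding sites.

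The fate of pyruvate in mitochondria depends on its carrier, on the pyruvate dehydrogenase complex and on the kinases that switch the complex off. *Pdk2*, one of these kinases, fell furthest of all called members, from 4.43, 4.71 and 4.87 CPM in WT to 2.69, 2.57 and 1.96 CPM in knockout replicates, which is 51.5% of WT (log2 fold change -0.95, SE 0.17; edgeR adjusted p = 5.48e-04). It rests on 47 to 123 counts per library. *Pdk1*, the most abundant of the kinases, was 432, 437 and 439 CPM in WT and 371, 332 and 374 CPM in knockout replicates (log2 fold change -0.28, SE 0.05; edgeR adjusted p = 9.90e-04). *Pdk3* and *Pdk4* were not called, with log2 fold changes of -0.03 (SE 0.09) and -0.20 (SE 0.12). Of the 4 inhibitory kinases, 2 thus fell and 2 did not pass the test.

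The complex itself moved little. *Pdhb*, its E1 beta subunit, was 242, 246 and 229 CPM in WT and 266, 256 and 263 CPM in knockout replicates (log2 fold change 0.13, SE 0.05; edgeR adjusted p = 0.0427). The E1 alpha subunit *Pdha1* had a log2 fold change of 0.08 (SE 0.05) and the E2 subunit *Dlat* -0.06 (SE 0.05). The *Pdhb* call was lost in 10 of 16 alternatives, among them the fits without WT ASC replicate 1 (0.14, edgeR adjusted p = 0.0530), WT replicate 3 (0.10, 0.0631), knockout replicate 1 (0.13, 0.107), knockout replicate 2 (0.15, 0.0655) or knockout replicate 3 (0.14, 0.10) and the fit with hepatocyte markers (0.15, 0.0755).

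*Pcx* encodes pyruvate carboxylase, which makes oxaloacetate from pyruvate, and was lower in knockout ASCs. Its level was 30.03, 24.9 and 27.6 CPM in WT and 21.3, 22.8 and 20.9 CPM in knockout replicates (log2 fold change -0.34, SE 0.07; edgeR adjusted p = 0.00261). The mitochondrial pyruvate carrier is made of *Mpc1* and *Mpc2*, both at low level here. *Mpc1* was at 3.35, 4.46 and 3.09 CPM in WT and 3.01, 2.49 and 2.67 CPM in knockout replicates, from 64 to 90 counts per library, and was not called (log2 fold change -0.41, SE 0.18; edgeR adjusted p = 0.0905). It was called without WT ASC replicate 3 (-0.52, edgeR adjusted p = 0.0491) and when the counts of its near-identical copy were added (-0.45, 0.00499), and 23.1% of its exon bases overlap a gene on the opposite strand. Over the fits without 1 library *Mpc1* ran from -0.52 to -0.24, with an edgeR adjusted p of up to 0.355. *Mpc2* was at 13.0, 13.3 and 11.2 CPM in WT and 11.5, 10.3 and 10.8 CPM in knockout replicates (log2 fold change -0.20, SE 0.09), and it too was called without WT ASC replicate 3 (-0.27, edgeR adjusted p = 0.0357). Leaving out 1 library at a time, *Mpc2* ran from -0.27 to -0.15, with an edgeR adjusted p of up to 0.294. Both carrier subunits thus lay lower on average, short of the threshold with all 6 libraries.

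The TCA cycle had the smallest share of called members of the 3 groups, and no test compared the groups. *Idh2*, the mitochondrial NADP-dependent isocitrate dehydrogenase, was the clearest change, at 125, 122 and 131 CPM in WT and 94.9, 89.6 and 98.3 CPM in knockout replicates, or 74.8% of WT (log2 fold change -0.42, SE 0.05; edgeR adjusted p = 6.07e-05). The NAD-dependent isocitrate dehydrogenase that belongs to the cycle proper is made of *Idh3a*, *Idh3b* and *Idh3g*, and the cytosolic enzyme is *Idh1*. *Idh3a* was at 135, 137 and 139 CPM in WT and 129, 125 and 129.7 CPM in knockout replicates, not called at a log2 fold change of -0.10, SE 0.05. *Idh3b*, *Idh3g* and *Idh1* had log2 fold changes of -0.01, 0.00 and 0.03 (SE 0.05, 0.05 and 0.06). With all 6 libraries and TMM factors the change was thus called for *Idh2* and for no other isocitrate dehydrogenase. *Idh2* was called under all 16 alternatives, and *Idh3a*, whose genotypes did not overlap, was called lower with library totals alone (-0.15, edgeR adjusted p = 0.0167).

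*Mdh2*, the mitochondrial malate dehydrogenase that closes the cycle, was the member called higher, at 228, 216 and 254 CPM in WT and 272, 290.4 and 275 CPM in knockout replicates (log2 fold change 0.26, SE 0.06; edgeR adjusted p = 0.00349). Its cytosolic partner *Mdh1* had 208, 199 and 175 CPM in WT and 185, 181 and 190.5 CPM in knockout replicates, which overlapped (log2 fold change -0.07, SE 0.06). *Fh1*, the fumarase, was slightly lower at 114, 115 and 110.2 CPM in knockout against 131, 127 and 121 CPM in WT replicates (log2 fold change -0.16, SE 0.05; edgeR adjusted p = 0.0234). The *Fh1* call was lost with hepatocyte markers as a covariate (-0.11, edgeR adjusted p = 0.212) and without WT ASC replicate 1 (-0.13, 0.0745), WT replicate 2 (-0.15, 0.0586), knockout replicate 1 (-0.15, 0.0822), knockout replicate 2 (-0.16, 0.0553) or knockout replicate 3 (-0.13, 0.138). Fumarase and malate dehydrogenase, consecutive steps, thus lay on opposite sides of 0.

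The other 14 genes of the cycle had log2 fold changes between -0.10 and 0.15 with SEs of 0.05 to 0.07. They include the entry enzyme *Cs*, the oxoglutarate dehydrogenase subunits *Ogdh* and *Dlst*, the succinyl-CoA ligase subunits *Suclg1*, *Suclg2* and *Sucla2*, the transaminases *Got1* and *Got2*, and *Acly*, which returns citrate to acetyl-CoA in the cytosol. *Ogdh* was at 133, 142 and 156 CPM in WT and 159.9, 168 and 152 CPM in knockout replicates (log2 fold change 0.15, SE 0.06; edgeR adjusted p = 0.0660). *Acly* was at 536, 531 and 593 CPM in WT and 592, 609.6 and 601 CPM in knockout replicates (log2 fold change 0.12, SE 0.05; edgeR adjusted p = 0.0773). *Cs* was at 244, 239 and 271 CPM in WT and 264, 269 and 260.1 CPM in knockout replicates (log2 fold change 0.08, SE 0.05). WT ASC replicate 3 held the highest WT value of these 3 genes, and without it *Ogdh* (0.22, edgeR adjusted p = 0.00629), *Acly* (0.17, 0.00317) and *Cs* (0.14, 0.0203) were called higher and *Mdh1* (-0.13, 0.0318) lower. Leaving out another single library took *Ogdh* to 0.10, *Acly* to 0.09, *Cs* to 0.04 and *Mdh1* to -0.01. Over the fits without 1 library their edgeR adjusted p reached 0.230, 0.226, 0.617 and 0.883. *Sucla2* was at 68.9, 69.3 and 66.0 CPM in WT and 68.7, 61.0 and 61.5 CPM in knockout replicates, which overlapped, and it was called lower with library totals alone (-0.15, edgeR adjusted p = 0.0446).

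Isozyme composition was compared per length, as each gene's share of its family's TPM in each library. Of 15 shares in 8 families, 11 did not overlap between the genotypes, where 52.4% of single genes did not overlap in level. Shares of 1 family are tied to each other, so these are not separate observations. Each of the 11 reached the smallest p that an exact permutation test of 3 against 3 allows, 0.1 (0.136 after Benjamini-Hochberg adjustment over 15). No share could therefore pass 0.05 in this design. The share of *Pfkl* among phosphofructokinase transcripts was 45.2% ± 1.89 in WT and 54.1% ± 0.321 in knockout ASCs, and that of *Pfkp* was 39.7% ± 2.66 in WT and 29.8% ± 2.08 in knockout ASCs. Per length *Pfkl* was the most abundant subunit in all 6 libraries. This order rests on the listed length of *Pfkp*, 13401 bases against 6675 for *Pfkl*, since in CPM *Pfkp* was above *Pfkl* in all 6 libraries. The difference between the genotypes in the share of *Pfkp* had the same direction on both scales. The *Ldha* share of lactate dehydrogenase was 86.2% ± 0.654 in WT and 90.7% ± 0.469 in knockout ASCs. Among the pyruvate dehydrogenase kinases, the *Pdk2* share was 2.10% ± 0.0612 in WT and 1.29% ± 0.250 in knockout ASCs, that of *Pdk1* 79.7% ± 1.39 in WT and 77.9% ± 0.586 in knockout ASCs and that of *Pdk3* 15.1% ± 1.31 in WT and 17.5% ± 0.556 in knockout ASCs. *Slc2a1* made up 41.3% ± 1.93 in WT and 44.9% ± 1.24 in knockout ASCs of the glucose transporter pair. The dominant isozyme of each family was the same in all 6 libraries, except for the succinyl-CoA ligase beta subunits, where the *Sucla2* share ran from 49.3 to 56.8%. The minor isozymes *Aldoc*, *Eno2*, *Ldhb* and *Pdk2*, each called lower in level, made up a smaller share in every knockout library than in any WT library. Other non-dominant isozymes were mixed. The shares of *Hk1* and *Pfkp* were also smaller without overlap, whereas those of *Slc2a1* and *Pdk3* were larger without overlap. The shares of *Pfkm*, *Eno3* and *Pdk4* overlapped between the genotypes.

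**Figure D4:**
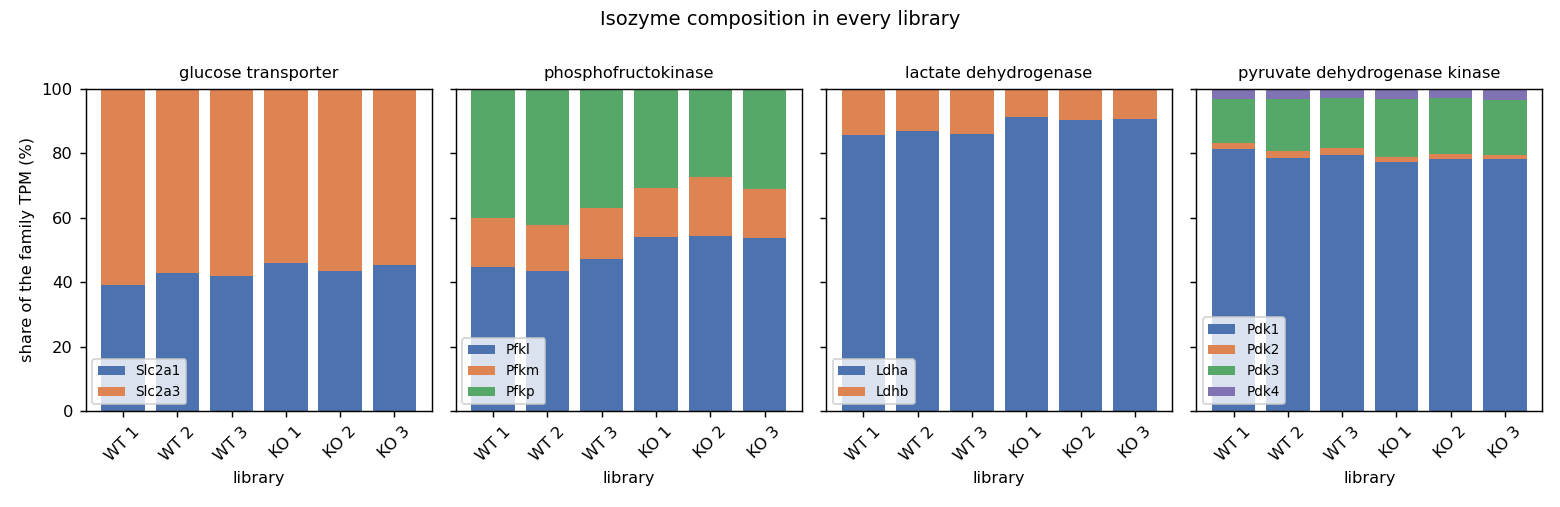
Share of each isozyme in the TPM of its family (stacked bars, 0 to 100%) in each of the 6 libraries, for glucose transporters, phosphofructokinase, lactate dehydrogenase and pyruvate dehydrogenase kinases. *Pfkp* falls from 37.0 to 42.3% of phosphofructokinase in WT to 27.4 to 31.3% in knockout libraries, and *Ldha* rises from 85.7 to 86.9% of lactate dehydrogenase to 90.3 to 91.2%.

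Other genes around these pathways, in lists of general knowledge that hold none of the 48, were read from the same fit. Of 28 tested other genes of glycolysis and gluconeogenesis 12 were lower and 2 higher (14 called of 28, against 41.7% of all genes tested), and their median was -0.37 on the log2 scale. *Pck2*, the mitochondrial phosphoenolpyruvate carboxykinase, was 145, 157 and 156 CPM in WT and 89.6, 85.7 and 93.8 CPM in knockout replicates (log2 fold change -0.77, SE 0.05; edgeR adjusted p = 4.54e-07). The glucose transporter *Slc2a8* (-0.69, SE 0.08) and the glucose 6-phosphate transporter *Slc37a4* (-0.65, SE 0.10) also fell. Of 17 tested other genes of pyruvate and lactate handling 2 were higher and 5 lower (41.2% called, close to the 41.7% of all genes; median -0.15). *Gpt2*, which interconverts pyruvate and alanine in mitochondria, was 74.7, 85.6 and 89.1 CPM in WT and 43.4, 40.0 and 43.9 CPM in knockout replicates, a log2 fold change of -0.97, SE 0.07 (edgeR adjusted p = 4.32e-07). *Pdp1*, a phosphatase that reverses the action of the pyruvate dehydrogenase kinases, had -0.59, SE 0.11. Kinase and phosphatase of the complex thus both had members that fell.

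Of 22 tested other genes of the TCA cycle and its carriers 3 were higher and 9 lower (54.5% called, against 41.7% of all genes; median -0.05). The acetyl-CoA synthetases *Acss1* (-0.55, SE 0.07) and *Acss2* (-0.66, SE 0.10) fell. In the pentose phosphate pathway, which branches from glycolysis and makes NADPH, 2 of 9 tested genes were higher and 2 lower (44.4% called; median -0.05). *Pgd*, the cytosolic 6-phosphogluconate dehydrogenase, rose from 215, 208 and 239 CPM in WT to 323, 322 and 324 CPM in knockout replicates (log2 fold change 0.55, SE 0.06; edgeR adjusted p = 7.86e-06), while *H6pd*, which catalyses the first steps of the pathway in the endoplasmic reticulum, fell (-0.54, SE 0.07).

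Of 30 hypoxia response genes, of which hypoxia-inducible factors are known to drive many along with glycolysis, 7 were higher and 7 lower (46.7% called, near the 41.7% of all genes, of which 21.0% were higher and 20.8% lower; median -0.11). *Ddit4*, an inhibitor of mTORC1 signalling, was 426, 499 and 475 CPM in WT and 227, 140.5 and 199.9 CPM in knockout replicates (log2 fold change -1.30, SE 0.13; edgeR adjusted p = 5.92e-06). *Ero1l*, an oxidase of the endoplasmic reticulum, and *Vegfa*, the vascular growth factor, were lower (-0.73, SE 0.11 and -0.60, SE 0.12). *Kdm3a*, a histone demethylase, *Epas1*, which encodes HIF2 alpha, and the collagen prolyl hydroxylase *P4ha2* were higher (0.57, SE 0.05, 0.51, SE 0.06 and 0.50, SE 0.08). *Hif1a* itself was not called at 0.08 (SE 0.05).

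**Figure D5:**
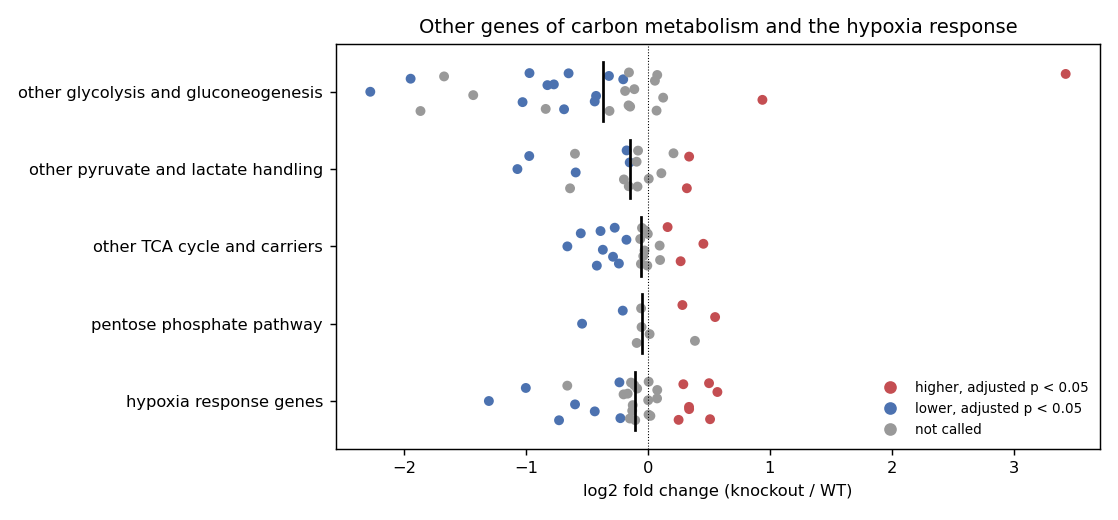
Log2 fold change in *Bdh2*-knockout over WT ASCs (x axis) of each tested gene in 5 lists of related genes, coloured by the edgeR call, with the list median as a black bar and points spread vertically for visibility. The medians are -0.37 for other genes of glycolysis and gluconeogenesis, -0.15 for pyruvate and lactate, -0.05 for the TCA cycle, -0.05 for the pentose phosphate pathway and -0.11 for the hypoxia response.

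Across the 16 called members, 7 (*Pfkp*, *Pfkfb3*, *Aldoc*, *Eno2*, *Ldhb*, *Pdk2* and *Idh2*) were called under all 16 alternatives, and 5 more (*Slc2a3*, *Hk1*, *Pdk1*, *Pcx* and *Mdh2*) under all but the test against a fold change of 1.2, which 14.7% of all genes passed. These 12 also kept their call with hepatocyte markers as a covariate and in each fit without 1 library. The remaining 4, *Pgam1*, *Pkm*, *Pdhb* and *Fh1*, had log2 fold changes of at most 0.19 in size.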

How the data were processed

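RNA-Seq of 3 replicates per genotype was analysed. The labels give extraction with TRIzol and an Illumina TruSeq library kit, whereas the methods name an RNeasy kit. Per the study's methods, the authors trimmed adaptors, dropped low-quality reads, mapped to GRCm38 with HISAT2 2.0.5, and counted reads per gene with FeatureCounts. The deposited table holds the authors' raw counts, with a length and a position per gene. The annotation release, the strand setting and the treatment of reads with several matches are not given in the sources used here, so overlapping genes, antisense partners and near-identical copies cannot be told apart by these counts. Gene positions of 48 of the 49 rows are identical in GENCODE M21, which was used for exon overlap and for shared 50-base stretches of transcripts. A gene was taken as a near-identical copy where at least 50% of its stretches occur in the member.

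The members were selected by gene name, with no threshold on a measured value, but they and the lists were chosen with earlier results of these data known. Counts were fitted in R 4.3.3 with edgeR 4.0.16 by its quasi-likelihood test on genotype alone, with TMM factors and the filterByExpr defaults. P-values were adjusted by Benjamini-Hochberg across the 16758 genes kept, with a threshold of 0.05. This edgeR fit gave the adjusted p-values that are printed without a named alternative. Those printed for an alternative come from its own fit, adjusted over the genes that fit tested. The adjusted p of the isozyme shares comes from their permutation tests. The CPM values use TMM library sizes. TPM and isozyme shares were computed here from counts and listed lengths, and shares were compared by two-sided exact permutation tests. The functions were checked on simulated counts. The limit of 3 counts covers counting error only. Alternatives were DESeq2 1.42.0 (the authors used DESeq2 in an earlier version), limma-voom 3.58.1, median-of-ratios factors, library totals, no filter, a minimum mean count of 50, the replicate block, each library left out, a fold change of 1.2, hepatocyte markers as a covariate and near-identical copies added to a row. Values by library are given for called members, for Gapdh and for members whose call some alternative turns, and from other lists up to 6 genes per list are named, called at 0.5 or more in size on the log2 scale and 5 CPM or more on average, some of them with values by library. The result for 1 gene that this rule names is not reported here. Equal replicate numbers were not taken to mark pairs, although the check given below cannot exclude pairing. Plots were made with Python 3.11.15 and matplotlib 3.10.9.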

Additional observations from a re-analysis of the deposited data

How the results depend on the processing

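No called member changed sign under any of the 16 alternatives, and of 784 comparisons of a member's value with an alternative 667 kept their direction and their side of the threshold. With library totals alone, glycolysis had 1 member called higher, pyruvate handling 0 higher with a median log2 fold change of -0.26, and the TCA cycle 4 lower with a median of -0.054. This scaling moved the median of all genes from -0.01 to -0.07 and the calls over all genes from 3518 higher and 3478 lower to 2731 and 4451. Without a filter (3795 higher and 3519 lower over all genes), 8 members of glycolysis were lower, and 2 of the TCA cycle higher and 1 lower. Against a fold change of 1.2 (1185 and 1272 over all genes), the higher and lower members numbered 1 and 3 in glycolysis, 0 and 2 in pyruvate handling and 0 and 1 in the TCA cycle. With hepatocyte markers as a covariate (2698 and 2536 over all genes), glycolysis had 8 lower, pyruvate handling 0 higher and the TCA cycle 1 lower. A mean count of at least 50 (3219 and 3140) left pyruvate handling with 0 higher, and DESeq2 (3175 and 2497) gave the TCA cycle 3 higher. The cause of these shifts was not tested.

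Leaving out 1 library at a time, the members called higher ran from 1 to 4 in glycolysis, 0 to 1 in pyruvate handling and 1 to 4 in the TCA cycle, those of the TCA cycle called lower from 1 to 3, and the pyruvate median from -0.24 to -0.12. The log2 fold change of Aldoa then ran from -0.063 to 0.049 and that of Eno1 from -0.038 to 0.020.

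Of the 33 members not called, 16 changed sign under some alternative. Among those whose values the report gives for single libraries or as a range, Pfkl was -0.0065 and Mdh1 0.0078 with the hepatocyte covariate, Aldoa 0.0012 with DESeq2 and 0.0035 without a filter, and Ldha -0.022 with library totals and -0.022 with the hepatocyte covariate. As a share of CPM in place of TPM, the difference in the Ldha share was 2.43 percentage points in place of 4.52, that of Pdk2 -0.37 in place of -0.81 and that of Pdk3 1.02 in place of 2.46, all in the same direction.

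With the replicate number as a block, 6452 genes were called in place of 6996 and pyruvate handling had 0 members higher. Deviations of same-numbered WT and knockout replicates correlated at -0.156, 0.00462 and 0.184, so the numbers were not taken as pairs.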
